A study of Mus musculus with 9 samples.

Results

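The transcripts described here encode the nuclear subunits of the mitochondrial respiratory chain and of the ATP synthase, together with some of the factors that assemble them. They were followed through the maturation of primary mouse megakaryocytes, the large marrow cells that release platelets. Members were the probe sets that the platform annotation pairs with exactly 1 gene symbol starting with Nduf, Uqcr, Sdh, Atp5 or Cox4 to Cox8. This gave 160 of the 20380 probe sets with 1 gene, and 87 of 12393 genes: 33 of complex I, 4 of complex II, 8 of complex III, 17 of complex IV, 17 of the ATP synthase and 8 assembly factors. Ndufa4 was counted with complex IV, of which it is a subunit despite its name. Of the 87 genes, 85 passed the filter on low signal.

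The cells grew out of mouse bone marrow or fetal liver under thrombopoietin, the cytokine of this lineage. They were sorted for high CD41, an integrin that marks megakaryocytes, and by forward scatter, which tracks size. The 4 sorted stages are named MKP (2 arrays), MK3 (2), MK4 (2) and MK6 (3). Collection was on days 3, 4 and 6, which MK3, MK4 and MK6 echo in their names; MKP has no stated day. No strain, age or genotype is given, and all stages share the thrombopoietin culture. Since nothing says that the arrays of 1 stage are separate cultures, a p-value here measures spread between samples that could be purely technical. Each array was an Affymetrix MOE430A, on which a probe set is a group of short probes designed against a transcript, and values are scaled signals on a linear scale unless log2 is named.

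The respiratory chain passes electrons from NADH through complex I, or from succinate through complex II, to coenzyme Q, then through complex III and cytochrome c to complex IV, which reduces oxygen. Complexes I, III and IV pump protons, and the ATP synthase, complex V, lets them flow back through its ring of c subunits to make ATP. Some subunits of complexes I, III, IV and V are encoded by mitochondrial DNA, and none of those was measured here. Nuclear respiratory factor 1 and the ETS family factor GABP are textbook regulators of many nuclear respiratory genes. Megakaryocytes carry mitochondria that are handed on to platelets.

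The 3 genes for subunit c, Atp5g1, Atp5g2 and Atp5g3, encode the same mature protein behind different import sequences, and 1 of them was the single member that passed the test between the ends of the course. Their promoter windows are therefore shown, each 250 bases before to 50 after the start in the RefSeq table of build GRCm38.p6, all 3 on the minus strand: Atp5g1 at chr11:96075582-96075881, Atp5g2 at chr15:102670998-102671297 and Atp5g3 at chr2:73911277-73911576. Capitals mark the letters GCGCATGCG, part of the nuclear respiratory factor 1 motif, on either strand; in the window that holds them the match and its reverse complement overlap.
Atp5g1: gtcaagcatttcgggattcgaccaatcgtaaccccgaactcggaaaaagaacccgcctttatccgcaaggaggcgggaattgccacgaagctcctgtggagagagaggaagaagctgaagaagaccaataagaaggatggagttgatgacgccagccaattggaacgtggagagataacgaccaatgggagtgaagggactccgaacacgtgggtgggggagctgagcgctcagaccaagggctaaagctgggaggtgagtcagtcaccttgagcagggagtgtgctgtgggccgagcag
Atp5g2: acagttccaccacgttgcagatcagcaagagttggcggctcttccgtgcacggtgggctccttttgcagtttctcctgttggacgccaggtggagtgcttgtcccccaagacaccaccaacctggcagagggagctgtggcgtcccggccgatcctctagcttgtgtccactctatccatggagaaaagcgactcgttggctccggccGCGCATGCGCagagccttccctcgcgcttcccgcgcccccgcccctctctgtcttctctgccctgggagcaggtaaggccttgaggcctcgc
Atp5g3: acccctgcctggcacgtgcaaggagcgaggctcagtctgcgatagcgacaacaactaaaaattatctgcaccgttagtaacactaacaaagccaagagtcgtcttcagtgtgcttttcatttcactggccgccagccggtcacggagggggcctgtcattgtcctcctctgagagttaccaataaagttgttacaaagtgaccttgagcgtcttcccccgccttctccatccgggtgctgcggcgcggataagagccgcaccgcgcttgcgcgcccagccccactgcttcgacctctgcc
Of these 3 windows, the one of Atp5g2 held the letters, and none held CCGGAAG, the ETS core that GABP binds. The Atp5g3 window lies inside the span of its gene, which reaches to position 73912464, so a start farther upstream was not searched. A window was found for 73 of the 87 members. GCGCATGCG or its reverse complement was in 12.3% of those (9 of 73), against 3.99% of the 7624 tested genes with a window and 1.95% of all 27025 genes in the table. CCGGAAG or its reverse complement was in 27.4% (20 of 73), against 19.3% of the tested genes and 9.93% of all genes. A match describes letters in a window and not a binding site.

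Some arrays stood apart from the rest. On the 6 arrays of MKP, MK3 and MK4 the beta-actin controls gave a 3' to 5' ratio, which goes up with RNA fragmentation, of 0.957 to 1.09. On MK6 arrays 1, 2 and 3 it was 1.49, 1.33 and 3.21. The same ratio of the Gapdh controls was 0.805 to 0.970 on the 6 earlier arrays and 0.996, 1.13 and 3.27 on MK6 arrays 1, 2 and 3. MK6 arrays 1 and 3 also had the lowest deposited signal levels (2% trimmed means of 102.0 and 101.9, against 122 to 220.2 on the other 7). MK6 array 1 is the one whose title carries no replicate number, and arrays 2 and 3 are those titled replicates 1 and 2. The 9 measured of 12 listed megakaryocyte markers had summed signals of 9803 and 10200.0 in MKP, 9501 and 20020.0 in MK3, 17340.0 and 20560.0 in MK4 and 16560 to 19710 in MK6, so MK3 array 1 was at the level of MKP. Pf4 alone made up 11340, 7269 and 9221 of the sums on MK6 arrays 1 to 3, against 4315 and 4180 in MKP. Itga2b, Gp1bb and Vwf were also above both MKP arrays on all MK6 arrays, while Itgb3 and Ppbp were below both. Gp9, Nfe2 and Gata1 overlapped between MK6 and MKP. Summed signals of 10 neutrophil markers were 12680, 28910 and 6557 on MK6 arrays 1 to 3, against 38570 and 47420 in MKP. They were 34880 and 35990 in MK3 and 27530 and 24880 in MK4. Those of 8 macrophage markers were 23360, 9700 and 11370 on MK6 arrays 1 to 3, against 8496 and 11140 in MKP. In MK3 they were 22600 on array 1 and 11650 on array 2, and in MK4 10740 and 13890. Lyz2 alone made up 12490 of the sum on MK6 array 1. On that array Cd68, Cd14, Mrc1, Mmp12 and Lyz2 were above both MKP arrays. Adgre1 and Marco were near MKP, and Csf1r was lower (1332, against 2100 and 1504 in MKP). No listed marker of any type was at 0 on any array. In such bulk samples, fewer cells of a type and less RNA per cell cannot be told apart.

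The respiratory genes were centred near no difference between MK6 and MKP. The median log2 difference, MK6 minus MKP, was -0.03 over the 85 tested members, of which 39 were positive. Over all 9392 tested genes the median was 0.13 and 59.2% were positive. That all-gene median was 0.09 after quantile normalization and 0.01 after scaling to a common median. With the filter at the 60th percentile, which keeps 6732 brighter genes, it was 0.035. It thus depends on the scaling and on how bright the genes are, and the distance of the members from it does too. Over the 77 subunit genes alone the median was -0.05, also -0.05 after quantile normalization, and -0.17 after scaling to a common median. Most members were bright, with a median at percentile 91.4 of the tested genes by mean log2 signal.

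By limma with Benjamini-Hochberg adjustment over all tested genes, 1 of 85 members was called in MK6 against MKP at an adjusted p below 0.05, Atp5g1, which was lower in MK6. Of all genes, 5.69% were called in this comparison (2.77% higher and 2.92% lower). At an unadjusted p below 0.05 there were 7 of 85 members (8.24%), against 23.8% of all genes. No member was called in MK3 against MKP, MK4 against MK3 or MK6 against MK4, where 0.0532%, 0.0106% and 0.0213% of all genes were called. In these steps 0, 1 and 3 members (0%, 1.18% and 3.53%) reached an unadjusted p below 0.05, against 9.88%, 3.59% and 10.5% of all genes. The moderated F test over the 4 stages called 0 of 85 members and 2.79% of all genes. Its unadjusted p was below 0.05 for 5 members (5.88%), against 17.1% of all genes. The median standard error of a member's difference was 0.28 on the log2 scale for MK6 minus MKP. The 95% interval lay within a 2-fold change for 60 of 85 members, while for the other 25 it reached past 2-fold.

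**Figure D1:**
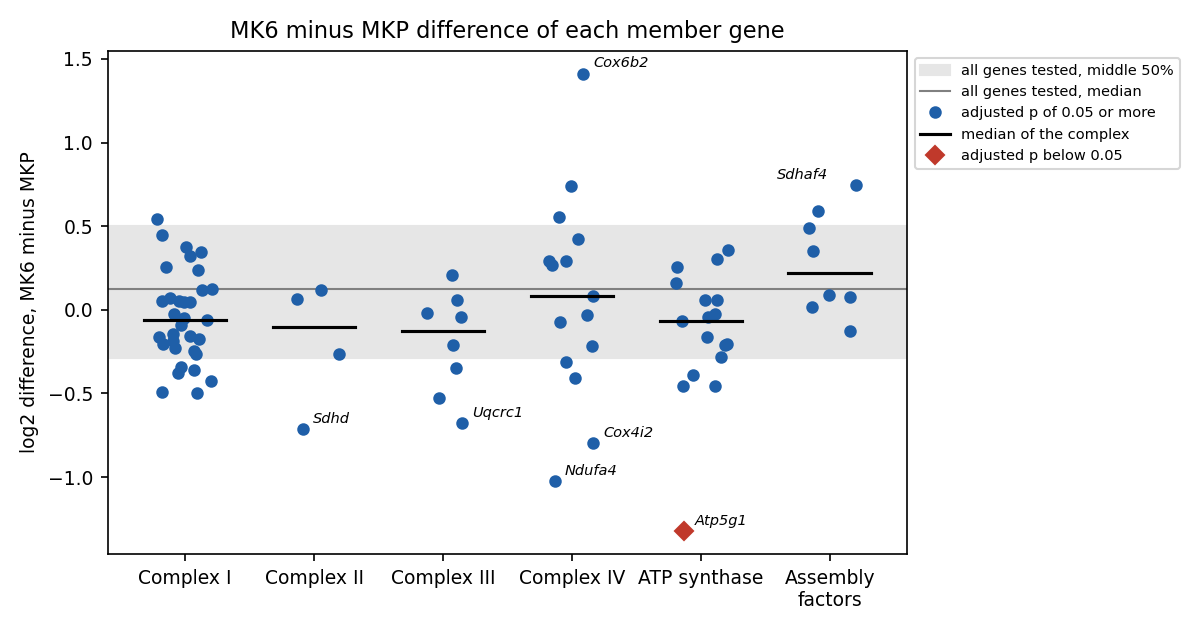
Log2 difference, MK6 minus MKP, of each of the 85 tested members (points, with the called gene as a diamond) by complex, with the median of each complex (black bar) and the median and middle 50% of all tested genes (grey line and band). Most members lie inside the band, Atp5g1 (-1.32) is lowest, Cox6b2 (1.41) is highest, and the assembly factors have the highest median (0.22).

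Counts of members whose arrays did not overlap between the 2 stages were also low. MK6 lay above MKP on all arrays for 8 of 85 members (9.41%; 24.6% of all genes) and below MKP for 10 of 85 (11.8%; 18.7% of all genes). The 10 lower ones were Atp5g1, Atp5b, Cox4i2, Ndufa4, Ndufb2, Ndufs8, Ndufv2, Sdhd, Uqcrc1 and Uqcrq. The 8 higher ones were Cox6a2, Cox6b2, Cox7a2l, Ndufa2, Ndufs5, Ndufaf3, Ndufaf7 and Sdhaf4. Of the 18, all but Atp5g1 missed the adjusted threshold. In MK3 against MKP 12 members lay higher without overlap (14.1%; 19.5% of all genes) and 22 lower (25.9%; 26.5%), and in MK6 against MK4 9 lay higher (10.6%; 14.9%) and 1 lower (1.18%; 9.78%).

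The 3 MK6 arrays differed from each other more than any other stage's arrays did. The median SD of a member within a stage was 0.16 on the log2 scale in MKP, 0.13 in MK3, 0.14 in MK4 and 0.42 in MK6. Over all genes it was 0.16 in MKP, 0.25 in MK3, 0.19 in MK4 and 0.38 in MK6. MK6 array 1 was the lowest of the 3 for 69 of 85 members (81.2%), against 31.4% of all genes, and array 3 was the highest for 49 (57.6%), against 27.3%. By the probe set that stood for each gene, array 1 was lowest for all 17 ATP synthase genes, 32 of 33 complex I genes and 7 of 8 of complex III. It was lowest for 10 of 15 of complex IV, 1 of 4 of complex II and 2 of 8 assembly factors. Other probe sets of these genes went both ways and were not counted. On MK6 arrays 1 to 3, dim ones of Atp5c1 (133, 54.5 and 99.4) and Uqcrq (111, 39.0 and 62.3) were highest on array 1. A brighter one of Atp5a1 (618, 1245 and 1233) was lowest there. Over the 77 subunit genes it was lowest for 87% in the main scaling, and for 80.3% of 76 after quantile normalization and 93.4% of 76 after scaling to a common median.

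Set against the MKP mean, the median member differed by -0.41 on MK6 array 1, 0.09 on array 2 and 0.28 on array 3, whereas the median of all genes was 0.23, 0.00 and 0.17. On array 1 the medians were -0.58 for the ATP synthase, -0.58 for complex III, -0.48 for complex I, -0.20 for complex IV, -0.15 for complex II and 0.28 for the assembly factors. The stage mean near 0 thus averages arrays on either side of MKP. Array 1 was also above the arrays of the earlier stages in the actin ratio, at 1.49, near the 1.33 of array 2. Its Gapdh ratio, 0.996, was close to the highest earlier value of 0.970. It was low in deposited level, low in the neutrophil sum and high in the macrophage sum, as given above. Array 3 shared the low level and the low neutrophil sum, and was highest in both ratios (3.21 and 3.27). The part of these in the split was not tested.

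**Figure D2:**
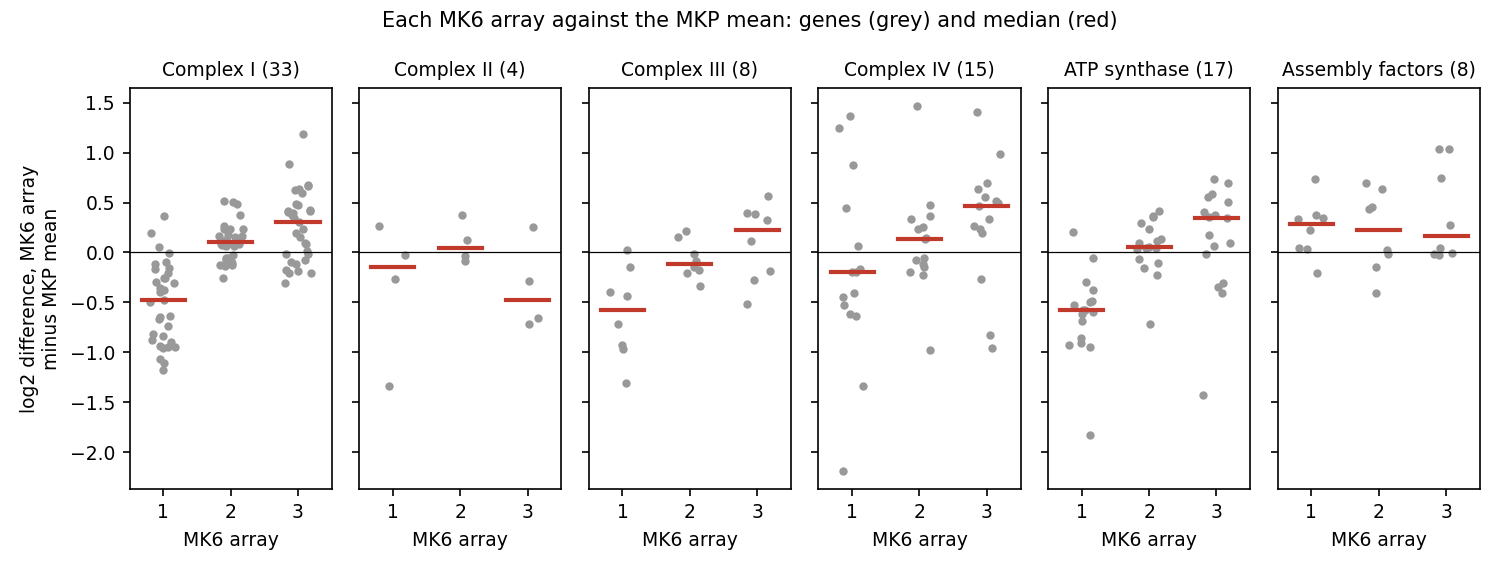
Log2 difference of each MK6 array from the mean of the MKP arrays, for each tested gene (grey points) and the median of each complex (red bars), by complex. Medians on array 1 run from -0.58 for the ATP synthase to 0.28 for the assembly factors.

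With the other arrays in view, the members' median was lowest on the MK4 arrays among the 3 earlier stages, though not in every complex. Complex I was at -0.01 on MK4 array 1 and on MKP array 2, and at -0.03 on MK3 array 1. MK4 was not tested against MKP. Centring each gene on its mean over the 9 arrays, the members' median was 0.15 and -0.02 on the MKP arrays, 0.02 and 0.02 on MK3, -0.05 and -0.15 on MK4, and -0.39, 0.16 and 0.33 on MK6 arrays 1, 2 and 3. In MK4 minus MK3, 55 of 77 subunit genes had a negative difference (71.4%, median -0.11), against 43.6% of all genes (median 0.05). After quantile normalization 47 of 76 were negative (61.8%, median -0.04), against 48.6% of all genes (median 0.01). After scaling to a common median 66 of 76 were (86.8%, median -0.23), against 58.5% (median -0.06). Both MK4 arrays lay below both MK3 arrays for 29 of 85 members (34.1%; 12.7% of all genes) and above them for 8 (9.41%; 17.5% of all genes). All 29 were subunit genes, which is 37.7% of the 77; after quantile normalization 19 of 76 (25%) were lower without overlap, against 15.6% of all genes, and after scaling to a common median 41 of 76 (53.9%), against 22.3%. No gene of them was called, and their sizes were small, the largest being Sdhb at -0.72.

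**Figure D3:**
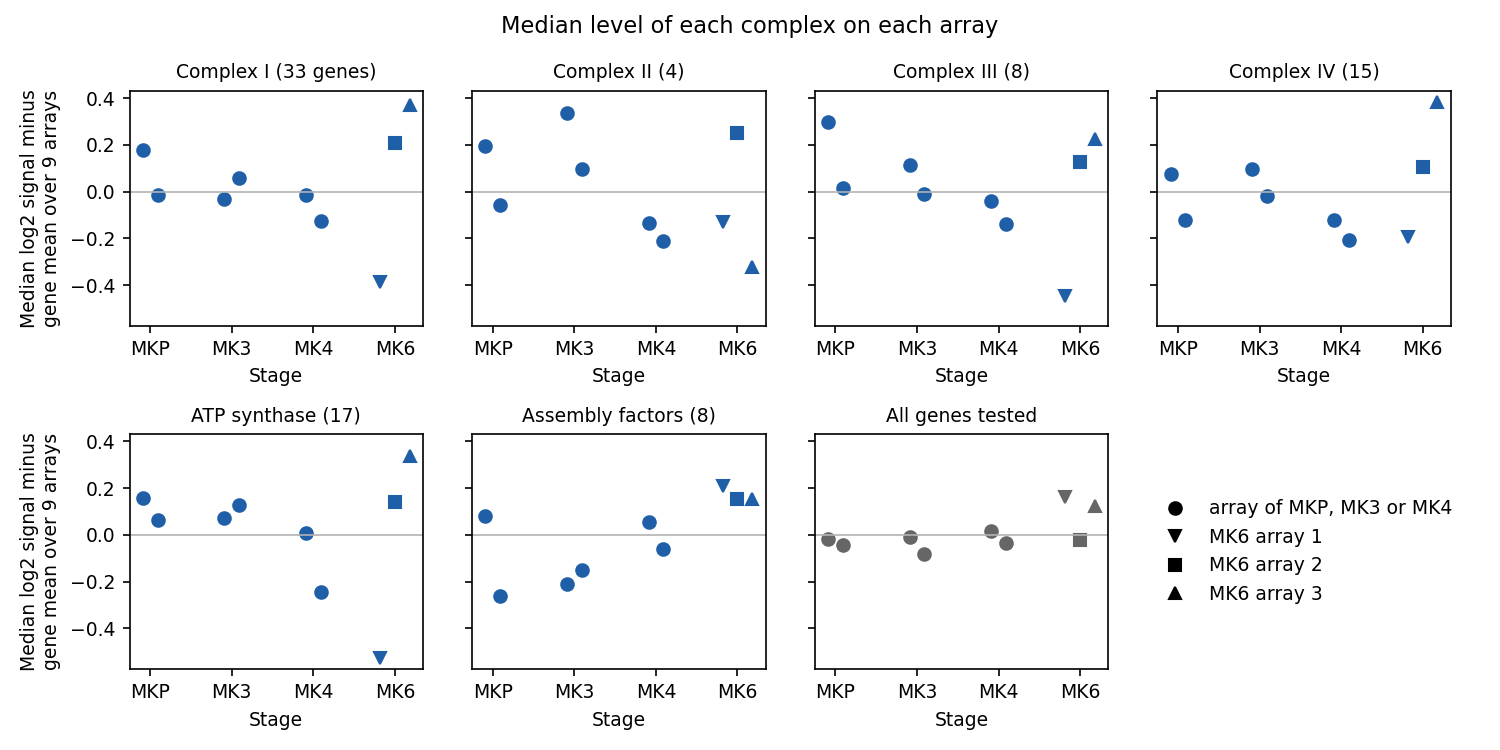
Median over the genes of each complex of the log2 signal minus that gene's mean over the 9 arrays, for each array by stage, with all tested genes in grey. Complexes I, III and V are at -0.39, -0.45 and -0.53 on MK6 array 1 and between 0.12 and 0.37 on MK6 arrays 2 and 3, while the assembly factors lie within 0.15 to 0.21 on all 3.

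Complex I, the NADH dehydrogenase and the entry point for most electrons, had a median difference of -0.06 in MK6 minus MKP, with 14 of 33 genes positive, and 0.19 without MK6 replicate 1. Its 6 core genes, which belong to the arm that leads electrons to the quinone site, had a median of -0.27 with 5 of 6 negative, and -0.02 with 3 of 6 negative without MK6 replicate 1. The 27 accessory genes had a median of -0.03 with 13 positive, and 0.21 with 22 positive without that array. With all arrays the range over complex I was -0.50 to 0.54. The lowest was Ndufs8, which holds iron-sulphur clusters on the way to the quinone site. Its signal was 892 and 868 in MKP, 853 and 913 in MK3, 745 and 615 in MK4, and 381, 801 and 770 in MK6. The MK6 arrays lay below MKP, with array 1 far below the other two, and the difference was -0.50 ± 0.31 (SE, limma adjusted p = 0.335). All 6 of its probe sets had a negative difference, from -0.73 to -0.25.

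Ndufv2, the iron-sulphur partner of the flavin subunit, had signals of 1011 and 984 in MKP, 846 and 850.3 in MK3, 806 and 880.2 in MK4, and 455, 834 and 918 in MK6. Every MK6 array lay below MKP, the difference being -0.49 ± 0.29 (adjusted p = 0.312), but its 3 probe sets ran from -0.49 to 0.23. Ndufb8, an accessory subunit of the membrane arm whose protein is often read as a sign of assembled complex I, had 557 and 625 in MKP, 718 and 721 in MK3, 465 and 666 in MK4, and 762, 623 and 1361 in MK6. MK6 array 3 was above all other arrays and array 2 lay inside the MKP range, so the groups overlapped (0.54 ± 0.31, adjusted p = 0.311).

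Complex II, succinate dehydrogenase, is shared with the citrate cycle and is encoded wholly in the nucleus. Its 4 genes had a median of -0.10 in MK6 minus MKP, with 2 positive. By the probe set that stood for each gene, all 4 were lower in both MK4 arrays than in both MK3 arrays under all 3 scalings. Of all genes, 12.7% were, 15.6% after quantile normalization and 22.3% after scaling to a common median. The median of the 4 genes was -0.34, -0.28 after quantile normalization and -0.46 after scaling to a common median, and none of the 4 was called. In the main scaling the other probe set of Sdhd gave 0.14 and that of Sdhc -0.15, both with overlap between MK4 and MK3. The other probe set of Sdha gave -0.31 without overlap. Sdhb, the iron-sulphur subunit, had 1154 and 841 in MKP, 1464 and 1204 in MK3, 840.2 and 761 in MK4, and 971, 960 and 1183 in MK6. It was highest in MK3, and its MK4 minus MK3 difference was -0.72 (adjusted p = 0.999). Hepatocyte markers, 7 of which were measured, summed to 3143 and 4043 on the MK3 arrays and to 126 to 1051 on the other 7, and their part in the MK3 levels was not tested.

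Sdhd, a membrane anchor of complex II, had 1108 and 998 in MKP, 923 and 781 in MK3, 665 and 686 in MK4, and 406, 994 and 633 in MK6. Arrays 1 and 3 of MK6 were low and array 2 was at the edge of MKP, for a difference of -0.71 ± 0.32 (adjusted p = 0.203). The other probe set of Sdhd gave 0.82, the widest disagreement of any member. Sdha, the flavin subunit, had 955 and 791 in MKP, 1089 and 878 in MK3, 784 and 790 in MK4, and 718, 948 and 546 in MK6, with overlap between MK6 and MKP (-0.27 ± 0.26, adjusted p = 0.542), and its 2 probe sets gave -0.27 and 0.05. Sdhc, the other anchor, differed by 0.12 (adjusted p = 0.79), and its other probe set gave -0.46.

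Complex III, the cytochrome bc1 complex, had a median of -0.13 in MK6 minus MKP and 2 of 8 genes were positive, and 0.11 without MK6 replicate 1. Uqcrc1, a core structural protein of the matrix side, had 1323 and 1293 in MKP, 1160 and 1195 in MK3, 964 and 983 in MK4, and 518, 1129 and 909 in MK6. Every MK6 array lay below MKP, the difference being -0.68 ± 0.30 (adjusted p = 0.196), and MK4 was below MK3 as well. Its companion Uqcrc2 differed by 0.21 (adjusted p = 0.623). Uqcrq, a small subunit near cytochrome b, had 931 and 695 in MKP, 630.2 and 718 in MK3, 637 and 574 in MK4, and 404, 635 and 663 in MK6. Its difference was -0.53 ± 0.26 (adjusted p = 0.244), while its 4 probe sets ran from -0.53 to 0.51. Uqcr11, another small subunit, had 606 and 423 in MKP, 479 and 455 in MK3, 396 and 312 in MK4, and 303, 456 and 444 in MK6, with overlap (-0.35 ± 0.26, adjusted p = 0.423). Uqcrfs1, the Rieske iron-sulphur protein, differed by -0.21 in MK6 minus MKP and by -0.55 in MK3 minus MKP, both short of the threshold (adjusted p = 0.721 and 0.704).

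Complex IV, cytochrome c oxidase, had the highest median of the 5 complexes, 0.08 in MK6 minus MKP with 8 of 15 positive (0.09 after quantile normalization and 0.05 after scaling to a common median). Without MK6 replicate 3 it was -0.13. The differences reached from -1.02 to 1.41, the widest spread of any complex here. Several of its subunits exist as paralogues, one used broadly and another mainly in muscle, lung, testis or other tissues. The 5 broad forms with such a paralogue (Cox4i1, Cox6a1, Cox6b1, Cox7a2 and Cox8a) had differences from -0.31 to 0.29. Those of the tissue forms that passed the filter (Cox4i2, Cox6a2, Cox6b2 and Cox8c) ran from -0.80 to 1.41. The broad forms were brighter, with signals of 941 to 4172, against 72.6 to 908 for the tissue forms. The part of signal level in the 2 ranges was not tested.

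**Figure D4:**
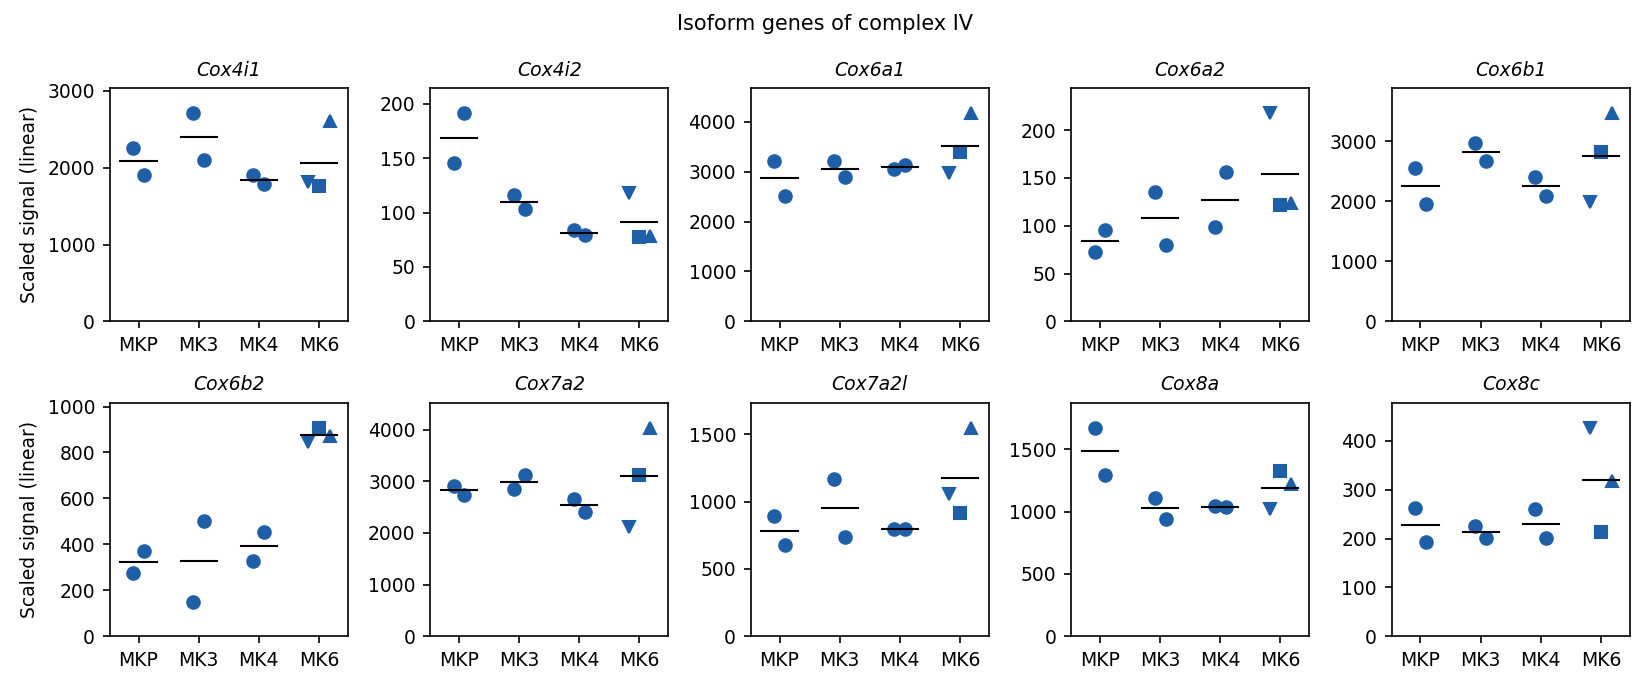
Scaled signal (linear axis from 0, a separate scale for each gene) of 10 isoform genes of complex IV on each array by stage, with stage means as bars; triangles pointing down, squares and triangles pointing up are MK6 arrays 1, 2 and 3. Cox6b2 on the 3 MK6 arrays (847 to 908) lies above all 6 other arrays (150 to 504), and Cox4i2 is lower in MK4 (79 and 84) and MK6 than in MKP (145 and 191).

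Cox6b2, known as the testis isoform of a subunit at the interface of the complex IV dimer, had 274 and 372 in MKP, 150 and 504 in MK3, 328 and 455 in MK4, and 847, 908 and 871 in MK6. The MK6 arrays were close together and above every other array, including array 1, on which most subunits were low. The difference in MK6 minus MKP was 1.41 ± 0.40, a 2.66-fold higher level, with an adjusted p of 0.0618, just past the threshold. The MK3 arrays, at 150 and 504, were far apart, and without MK3 replicate 1 or 2 the adjusted p was 0.0108 or 0.0111. Over 23 alternatives Cox6b2 was called in 3, with adjusted p up to 0.508 and differences from 1.20 to 1.62. Its broad counterpart Cox6b1 had 2557 and 1948 in MKP, 2978 and 2666 in MK3, 2409 and 2093 in MK4, and 1984, 2819 and 3471 in MK6, with overlap (0.27 ± 0.28, adjusted p = 0.578).

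Cox4i2, the isoform of subunit 4 known from lung and from cells at low oxygen, had 145 and 191 in MKP, 116 and 103 in MK3, 84 and 79 in MK4, and 118, 77 and 79 in MK6. All later arrays lay below MKP, and the difference was -0.80 ± 0.26 in MK6 minus MKP (adjusted p = 0.101). Without MK6 replicate 1 it was -0.97 (adjusted p = 0.0414), and after scaling to a common median -0.91 (adjusted p = 0.0467). In the other 21 of 23 alternatives it was not called, with adjusted p up to 0.595 and differences as small as -0.45. Cox4i1, the broad form, had 2260.0 and 1904 in MKP, 2712 and 2095 in MK3, 1901 and 1792 in MK4, and 1816, 1768 and 2613 in MK6, a difference of -0.03 ± 0.26 (adjusted p = 0.953).

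Cox6a2, the heart and muscle form of subunit 6a, had 73 and 95 in MKP, 135 and 80.3 in MK3, 98 and 156 in MK4, and 218, 121 and 124 in MK6. The MK6 arrays lay above MKP but not above MK3 and MK4, for 0.74 ± 0.33 (adjusted p = 0.203). Cox6a1, the broad form, had 3208 and 2517 in MKP, 3206 and 2887 in MK3, 3045 and 3140.0 in MK4, and 2977, 3389 and 4172 in MK6. The groups overlapped (0.29 ± 0.25, adjusted p = 0.498), and the 2 probe sets of Cox6a1 ran from -0.14 to 0.29.

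Cox7a2l, which in mouse takes part in joining complexes III and IV into supercomplexes, had 893 and 675 in MKP, 1170.0 and 737 in MK3, 799 and 797 in MK4, and 1061, 916 and 1550.0 in MK6. The MK6 arrays lay above MKP, for 0.55 ± 0.29 (adjusted p = 0.264), and all 3 probe sets were positive, from 0.38 to 0.75. Cox7a2, the broad form, had 2916 and 2728 in MKP, 2852 and 3116 in MK3, 2666 and 2410.0 in MK4, and 2122, 3121 and 4036 in MK6, a difference of 0.08 ± 0.29 (adjusted p = 0.877). Cox7a1, the heart and muscle form, never passed the filter of 46.8, its signals being 0.738 to 34.0 over the 9 arrays.

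Cox8a, the broad form of subunit 8, had 1672 and 1293 in MKP, 1111 and 941 in MK3, 1042 and 1034 in MK4, and 1019, 1327 and 1220.0 in MK6. All 4 arrays of MK3 and MK4 lay below MKP, with -0.52 in MK3 minus MKP (adjusted p = 0.551) and -0.31 ± 0.23 in MK6 minus MKP (adjusted p = 0.423). Its 3 probe sets ran from -0.31 to 0.13. Cox8c, known from testis, had 262 and 194 in MKP, 226 and 202 in MK3, 260.0 and 201 in MK4, and 427, 213 and 317 in MK6, with overlap (0.42 ± 0.29, adjusted p = 0.389). Cox8b, another muscle form, had signals of 2.40 to 34.0 and did not pass the filter on any array.

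Ndufa4 had 1165 and 1230.0 in MKP, 906 and 1260.0 in MK3, 719 and 954 in MK4, and 251, 1152 and 670 in MK6. Its MK6 arrays spanned a wide range and all lay below MKP, with array 2 just under it. The difference was -1.02 ± 0.48, the 3rd largest of any member in size, and did not pass (adjusted p = 0.222). No probe set of its paralogue Ndufa4l2 was among the members.

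The ATP synthase genes had a median of -0.07 in MK6 minus MKP, with 6 of 17 positive, and 0.20 without MK6 replicate 1. By role, the median was -0.21 for the 5 genes of the catalytic head, -0.29 for the 3 subunit c genes, -0.12 for the 4 of the stalk and 0.16 for the 5 of the other membrane parts. Without MK6 replicate 1 these medians were 0.11 for the head, -0.18 for subunit c, 0.13 for the stalk and 0.43 for the other membrane parts, so the signs of the head and the stalk turned. In MK4 minus MK3 the median over the 17 genes was -0.16 with 13 negative. After quantile normalization it was -0.09 with 9 negative (52.9%; 48.6% of all genes), and after scaling to a common median -0.28 with 16 negative (94.1%; 58.5% of all genes).

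Atp5g1 had 900.0 and 928 in MKP, 689 and 841 in MK3, 926 and 501 in MK4, and 246, 551 and 330.1 in MK6. All MK6 arrays were below MKP and MK3, and 1 MK4 array was below the highest MK6 array. Atp5g1 was lower in MK6 than in MKP, with a difference of -1.32 ± 0.34 on the log2 scale, 0.399 of its MKP level, with a 95% interval from -2.08 to -0.57 (limma, adjusted p = 0.0487). The F test over the stages gave an adjusted p of 0.139, and the step from MK4 to MK6, -0.91, did not pass (adjusted p = 0.389). The call is close to the threshold: it was kept in 9 of 23 alternatives, with adjusted p from 0.0122 to 0.511 and differences from -1.83 to -0.72, all negative. It was lost without either MKP array (-1.35 and -1.30, adjusted p = 0.275 and 0.261), without MK6 replicate 1 (-1.07, adjusted p = 0.0747) or 3 (-1.27, adjusted p = 0.133), and without MK3 replicate 1 or 2 (adjusted p = 0.0516 and 0.0522).

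The other 2 subunit c genes, whose promoters are printed above, did not pass. Atp5g2 had 1821 and 1404 in MKP, 1817 and 1423 in MK3, 1594 and 1552 in MK4, and 1133, 1650.0 and 1202 in MK6. MK6 arrays 1 and 3 were low and array 2 lay within MKP (-0.29 ± 0.25, adjusted p = 0.508). Atp5g3 had 3284 and 3379 in MKP, 3666 and 3589 in MK3, 3196 and 2651 in MK4, and 2195, 3453 and 4249 in MK6. MK6 array 1 was lowest and array 3 highest of all 9, so the difference was -0.07 ± 0.30 (adjusted p = 0.906). Whether Atp5g1 differed from its paralogues in its change was not tested.

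**Figure D5:**
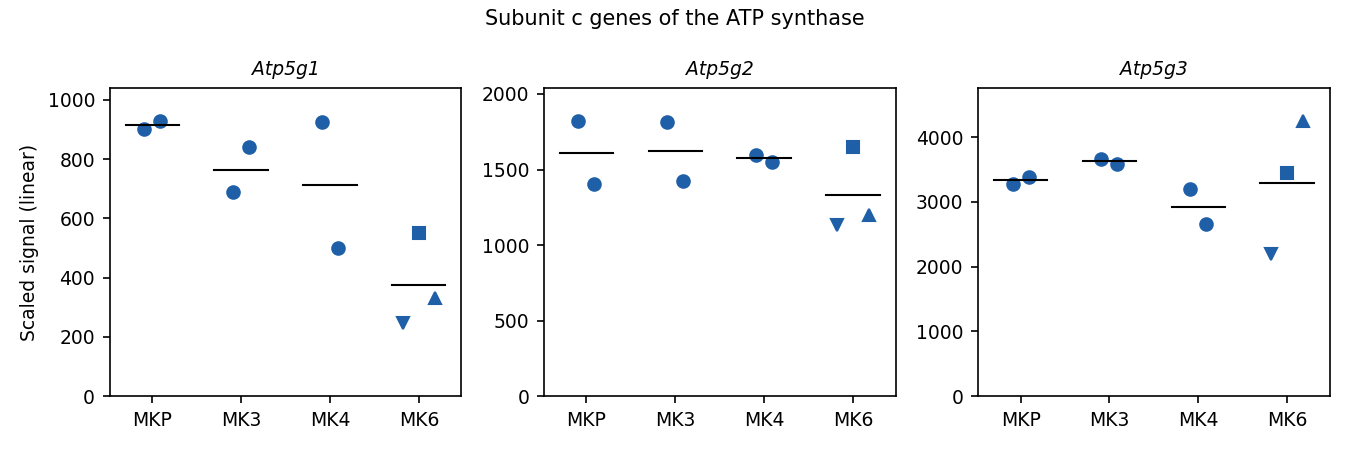
Scaled signal (linear axis from 0, a separate scale for each gene) of the 3 subunit c genes on each array by stage, with stage means as bars; triangles pointing down, squares and triangles pointing up are MK6 arrays 1, 2 and 3. Atp5g1 is below MKP (900.0 and 928) on all MK6 arrays (246 to 551), whereas Atp5g3 is below MKP on array 1 and above it on arrays 2 and 3.

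Atp5b, the catalytic beta subunit, had 2247 and 2291 in MKP, 1884 and 1842 in MK3, 2476 and 1716 in MK4, and 1170.0, 2166 and 1778 in MK6. The MK6 arrays lay below MKP (-0.45 ± 0.29, adjusted p = 0.357). Atp5a1, its alpha partner, had 3686 and 2896 in MKP, 3060.0 and 3471 in MK3, 3084 and 2356 in MK4, and 1740.0, 2925 and 2639 in MK6. MK6 array 2 overlapped MKP (-0.46 ± 0.29, adjusted p = 0.35), and the 3 probe sets of Atp5a1 ran from -0.46 to 1.05. The other 12 ATP synthase genes had differences from -0.39 for Atp5o, a stalk subunit, to 0.36 for Atp5k, a small membrane subunit, and none passed.

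The assembly factors build complexes I and II and are not part of them. On MK6 array 1 their median was 0.28 above the MKP mean, near the 0.23 of all genes, where the subunits' median was -0.49. Their signals were 36.9 to 585, dimmer than those of most subunits. Their median in MK6 minus MKP was 0.22 with 7 of 8 positive, above the all-gene median of 0.13; after scaling to a common median it was 0.10 with 4 of 8 positive, and after quantile normalization 0.27. All 8 were positive in MK4 minus MK3 (median 0.18), against 56.4% of all genes. After scaling to a common median 5 of 8 were positive, where 58.5% of all genes were negative. After quantile normalization 6 of 8 were, where 48.6% of all genes were negative. Sdhaf4, a chaperone of the flavin-bound Sdha, had the largest difference. Its signal was 228 and 251 in MKP, 262 and 237 in MK3, 228 and 278 in MK4, and 409, 333 and 506 in MK6. All MK6 arrays lay above all others (0.74 ± 0.23, adjusted p = 0.0908). Ndufaf7, a methyltransferase that acts on a core subunit of complex I, differed by 0.59 without overlap from MKP (adjusted p = 0.234), and Ndufaf3 by 0.35 (adjusted p = 0.331).

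Several probe sets read 46 of the 87 genes, and for 43 of those at least 2 passed the filter. The MK6 minus MKP differences of a gene's probe sets shared a sign for 21 genes and did not for 22. The median gap between a gene's highest and lowest probe set was 0.37, and it was 1 or more for 5 genes, with Sdhd (1.53) at the top. In each of these 5 genes the probe set with the highest difference was dimmer than the one that stood for the gene. For Sdhd it had signals of 39.2 to 192, against 406 to 1108, and for Atp5a1 34.6 to 135, against 1740 to 3686. Whether the difference goes with signal level over all probe sets was not tested. The sign of a small difference in a single member is therefore not fixed by these data, and neither is that of the larger one of Sdhd. Cox6b2, Ndufa4, Cox4i2, Uqcrc1, Atp5g1 and Atp5g3 each had 1 probe set.

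The other genes of mitochondrial energy metabolism were taken from lists. Of the pyruvate dehydrogenase and citrate cycle genes, 1 of 16 was called in MK6 against MKP, lower, where 2.92% of all genes were called lower and 5.69% in either direction. Of the 16, 4 were positive (median -0.32; 7 positive and median -0.14 without MK6 replicate 1), against an all-gene median of 0.13. The called gene was Idh2, the mitochondrial NADP-dependent isocitrate dehydrogenase, with 782 and 742 in MKP, 523 and 446 in MK3, 420 and 387 in MK4, and 192, 446 and 320.4 in MK6. Idh2 was lower in MK6 than in MKP, with a log2 difference of -1.29 ± 0.30 (limma adjusted p = 0.0334), and its stage means were lower at each later stage without any single step passing. Over 11 alternatives (both other scalings and each array left out) Idh2 was called in 5, with adjusted p up to 0.245, and the call was lost after scaling to a common median and without MKP replicate 1 or 2, MK4 replicate 1 or 2, or MK6 replicate 3. Suclg2, a subunit of succinyl-CoA synthetase, differed by -1.04 ± 0.35 (adjusted p = 0.105). In MK3 minus MKP all 16 differences were negative with a median of -0.30, against an all-gene median of -0.04, and none was called; after scaling to a common median 15 were negative.

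Of 13 glycolytic genes, 2 were called lower in MK6 and none higher, against 2.92% of all genes called lower. Their median was -0.25 with 5 positive, against 0.13 and 59.2% positive over all genes. Pfkl, the liver-type phosphofructokinase, had 932 and 1118 in MKP, 700 and 864 in MK3, 788 and 809 in MK4, and 245, 445 and 197 in MK6. The 3 MK6 arrays lay below all others, and Pfkl was lower in MK6 than in MKP, with a difference of -1.82 ± 0.31 (adjusted p = 0.0107; F test over the stages, adjusted p = 0.0321). Pfkl was called in 9 of the 11 alternatives and lost without either MKP array (adjusted p = 0.118 and 0.136). Tpi1, triose phosphate isomerase, had 1599 and 1363 in MKP, 1679 and 1500.0 in MK3, 1280.0 and 1397 in MK4, and 772, 942 and 587 in MK6. It was lower in MK6 than in MKP, with a difference of -0.96 ± 0.25 (adjusted p = 0.0483), and this call was kept in 3 of the 11, after quantile normalization and without MK6 replicate 1 or 2, with adjusted p up to 0.351.

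Among 11 electron carrier and coenzyme Q genes 1 was called higher, against 2.77% of all genes, and 3 were positive (median -0.12; 8 positive and median 0.20 without MK6 replicate 1). Coq5, a methyltransferase of coenzyme Q synthesis, had 79.8 and 81.1 in MKP, 105 and 91.5 in MK3, 86 and 76.9 in MK4, and 148, 168 and 223 in MK6. MK6 lay above every other array, and Coq5 was higher in MK6 than in MKP by 1.01 ± 0.25 (adjusted p = 0.0401), and was called in 3 of the 11 alternatives, without MK3 replicate 1 or MK6 replicate 1 or 2, with adjusted p up to 0.275. Coq4 of the same pathway differed by -0.91 ± 0.45 (adjusted p = 0.24).

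No gene was called in MK6 against MKP in the other lists. Of 20 assembly factors outside the symbol prefixes 11 were positive, with a median of 0.24. The median was 0.12 after scaling to a common median, and -0.02 with 9 positive without MK6 replicate 3. Among them Cox16 was at -0.97 and Cox17, a copper chaperone for complex IV, at 0.78 (adjusted p = 0.136 and 0.177). Of 14 biogenesis and mitochondrial DNA factors 9 were positive (median 0.08; 4 positive and -0.05 after scaling to a common median), with Gabpb1, a GABP subunit, at -0.71 and Ppargc1b, a coactivator of respiratory genes, at -0.48 (adjusted p = 0.199 and 0.438). Of 20 import, carrier and chaperone genes 6 were positive (median -0.15; -0.02 without MK6 replicate 1), with Tomm40, the outer membrane import channel, at -0.99 and the ATP/ADP carrier Slc25a5 at -0.85 (adjusted p = 0.0635 and 0.127). Of 8 peroxide defence and mitophagy genes 5 were positive (median 0.08; 3 positive and -0.05 after scaling to a common median), with Gpx4 at 0.60 and Pink1 at 0.29. The 2 measured subunits outside the prefixes were Cyc1, cytochrome c1 of complex III, at -0.45, and Dmac2l, an ATP synthase coupling factor, at 0.03 (adjusted p = 0.241 and 0.954). In the 3 successive steps no gene of any of these lists was called.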

How the data were processed

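Intensities of 9 single-colour Affymetrix MOE430A arrays were used as deposited, on a linear scale; the authors made them with MAS5 per the submitters' processing notes, with no version or settings in the sources used here. Stages came from the array titles, and replicate numbers from accession order. Each array was scaled to a common 2% trimmed mean (160.545), which leaves out any change in total RNA per cell. Values were log2(signal + 15.26), a pseudocount at percentile 20, so folds of dim genes are understated. A probe set was kept if its signal exceeded 46.83 (percentile 40) on 2 or more arrays, and the one with the highest mean stood for its gene, leaving 9392 of 12393 genes. The 64 control probe sets, 691 with several symbols and 1555 with none were left out of the tests. Limma 3.58.1 in R 4.3.3 (lmFit, eBayes with trend) fitted a mean per stage to all arrays, with 5 residual degrees of freedom, tested on simulated data first. The comparisons share arrays and are not independent. The number of arrays limits the precision.

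The members and lists were chosen with earlier results of these data known. Genes named with values were the members called in any comparison, the 3 subunit genes per complex (2 for complex II) that differed most between MK6 and MKP in size, listed paralogues, and per other list the called genes and the 2 with the largest difference; others named were chosen after their values were seen. Marker genes came from lists of each cell type. Alternatives were other pseudocounts, filters, scalings, probe set rules and variance models, the beta-actin ratio as a covariate, the 2 stages alone, and arrays left out; leaving out MK6 arrays 1 and 3 together, and repeating role groups and other lists with other scalings or fewer arrays, were chosen after seeing the data.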

Additional observations from a re-analysis of the deposited data

How the results depend on the processing

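The count of members called in MK6 against MKP, 1 of 85, was 0 with the pseudocount at the 10th percentile, no filter, quantile normalization, eBayes without trend, the beta-actin ratio as a covariate, or without both MK6 arrays 1 and 3. Leaving out 1 array at a time gave 0 to 4, the 4 without MK6 replicate 2. With MK6 array 1 as the single MK6 array, assumed to vary like the others, it was 17 (1 higher and 16 lower; 20.5% of all genes). After scaling to a common median the 1 called member was Cox4i2. In MK6 against MK4 the count was 0, and 1 with MK6 array 1 alone. The F test over the 4 stages called 0, with 0 to 1 when 1 array was left out, the 1 without MK3 replicate 1, MK3 replicate 2 or MK6 replicate 2, and 3 with MK6 array 1 alone. Counts in the other 2 steps stayed at 0 throughout. Apart from the 20.5%, no share of all genes is given for these settings, so the counts are not read as high or low.

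Median MK6 minus MKP differences with MK6 array 1 alone were -0.48 for complex I, -0.58 for III, -0.20 for IV and -0.58 for V; with the actin covariate -0.35, -0.46, -0.31 and -0.45. Leaving out 1 array gave -0.13 (without MK6 replicate 3) to 0.20 for complex IV and 0.052 (without MKP replicate 2) to 0.42 (without MKP replicate 1) for the assembly factors, -0.19 to 0.19 for complex I, -0.33 to 0.11 for III and -0.27 to 0.20 for V. The assembly factors' median was 0.086 with the filter at the 60th percentile and 0.10 after scaling to a common median. Of 24 named members 13 kept their sign in all 23 alternatives and 11 did not. No paired analysis was possible because the replicate numbers in the titles are given for MK6 only, so they pair no stages. With 2 or 3 arrays per stage, changes under 2-fold in a single gene are near the limit of detection. The causes of these shifts were not tested.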

Other observations

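Another 8 probe sets carried several gene symbols, at least 1 of them with a member prefix, and were left out of the comparisons. The pair that reads Ndufb4 together with its near copies had 368, 705 and 707 in MK6 and 593 and 517 in MKP for one probe set, and 216, 386 and 415 in MK6 and 362 and 312 in MKP for the other. Ndufa11 with its copy, an accessory complex I gene, had 377, 596 and 632 in MK6 and 478 and 421 in MKP. Ndufs6 with its copy had 320, 768 and 666 in MK6 and 468 and 473 in MKP. In each of these 4 probe sets MK6 array 1 was the lowest of the 3 MK6 arrays and below both MKP arrays, while arrays 2 and 3 were above both. The probe sets that read Ndufs5 and Ndufab1 together with their pseudogenes showed the same order, with 208, 369 and 345 in MK6 and 229 and 273 in MKP for Ndufs5, and 273, 500.2 and 493 in MK6 and 275 and 368 in MKP for Ndufab1. The remaining probe sets, which share a symbol of Ndufa13 or Ndufb2 with another gene, were dim and did not show it.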
